A study of Lumnitzera littorea with 6 samples.

Results

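Type II (MIKC) *MADS-box* genes of the mangrove *Lumnitzera littorea* were described by subfamily in leaves of seedlings under salt stress and in their controls. The members are the 32 *LlMADS* genes that the study's gene list classes as type II, out of 63 *MADS-box* genes and 26139 gene models in the count matrix. Membership was set by sequence class, and no measured value was used to choose it. Earlier results of these data were known, however, when members and lists were chosen. Each member belongs to one of 13 named subfamilies of the study's phylogenetic tree, except *LlMADS62*, which stands alone in that tree. Salt stress seedlings received 400 mM NaCl for 3 days, and CK seedlings received fresh water. Both groups were raised from seeds picked in the field and grown outdoors in a garden for 1 year. RNA came from leaves, with 3 libraries per group, and the labels say that RNA was extracted from each plant.

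Type II MADS-box proteins are transcription factors that bind DNA through the MADS domain and pair with each other through a keratin-like K domain. Most are known from *Arabidopsis* as regulators of the floral transition and of the identity of floral organs, where proteins of classes A, B, C and E act together in complexes. Others are known from roots, embryos or pollen. The timing genes of the SVP, FLC and SOC1 subfamilies are known to be transcribed in *Arabidopsis* leaves. The K domain was listed for 28 of the 32 members. The 4 members without it, *LlMADS3*, *LlMADS19*, *LlMADS34* and *LlMADS60*, are those the tree places in the MIKC\* subfamily, although the study's text calls *LlMADS19* MIKCC.

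Counts summed to between 16403150 and 19456211 per salt stress library and to between 16273192 and 19433684 per CK library. Levels are given as CPM, counts relative to library size after scaling by TMM, a method that allows for differences in composition. Each read added between 0.0547 and 0.0645 CPM to a gene in salt stress and between 0.0483 and 0.0578 CPM in CK. For a gene with 0 counts, the floor of 3 counts allows a level of up to 0.194 CPM in a library, with counting error alone considered. The gene models carry no names apart from the *MADS-box* list, so leaf markers could not be examined. In these bulk samples, fewer cells of a type and less RNA per cell cannot be told apart.

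Reads of the type II genes in leaf came mostly from subfamilies known for flowering time in *Arabidopsis*. Such roles name the lists used here and were not tested for the *L. littorea* genes. The SVP, FLC and SOC1 subfamilies, with 8 genes, held 82.7% of all 26650 type II counts, and *LlMADS62* alone held 11.7%. The 14 genes of floral organ identity (the SQUA, AP3/PI, AG/STK, SEP, AGL6 and BS subfamilies) held 3.23%, and most of those counts were of a single AP3/PI gene. MIKC\* held 2.16%. The AGL15, ANR1/AGL17 and AGL12 subfamilies together held 0.206%. Shares of counts also depend on gene length, since longer genes collect more reads.

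Each of the 13 named subfamilies had at least 1 count. By gene, 27 of the 32 type II genes were detected with 1 count or more (83.4% of all gene models were), and 24 of them in a CK library, against 80.3% of all gene models. Few of them were well covered. In 3 or more libraries, 8 type II genes reached a CPM of 1, as did 66.5% of all gene models. The same 8 genes passed edgeR's low-count filter, as did 69.1% of all gene models, and were tested for a change. They come from the SVP, FLC, SOC1, AP3/PI and MIKC\* subfamilies and from *LlMADS62*, and they held 98.7% of the type II counts. The other 24 genes held 359 counts over the 6 libraries, and 5 of them held none. The 31 Type I genes included 15 with a count and 2 that were tested, with a median log2 fold change of 0.14.

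**Figure D1:**
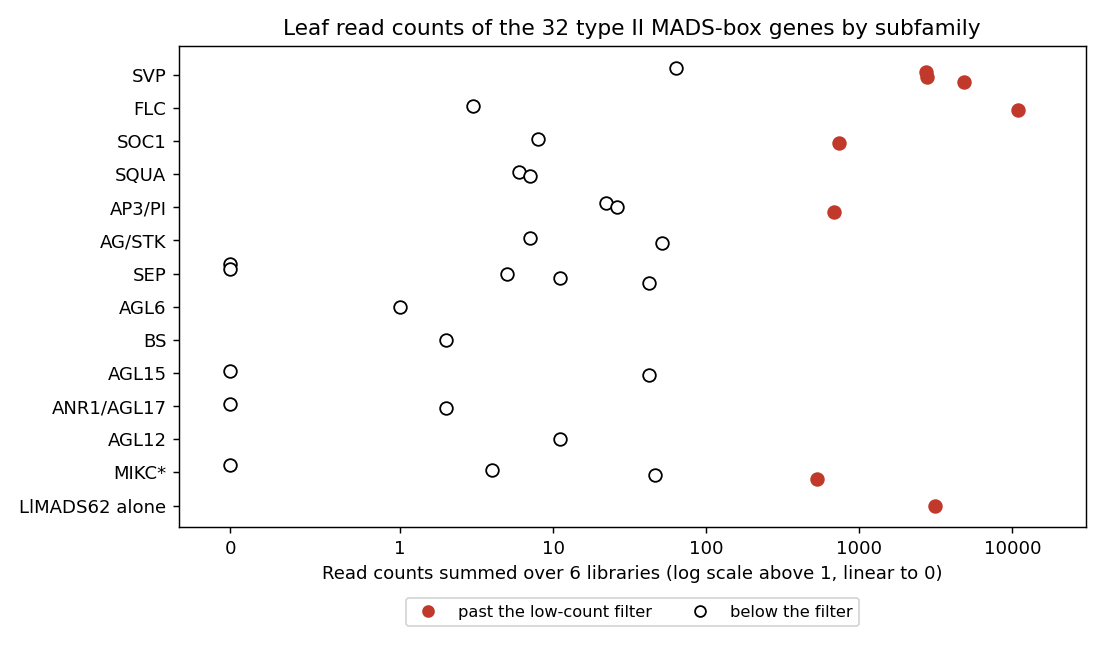
Read counts of each of the 32 type II genes, summed over 6 libraries (horizontal axis, logarithmic above 1), by subfamily (vertical axis), with filled points for the 8 genes past the low-count filter and open points for the others. Filled points appear in SVP, FLC, SOC1, AP3/PI and MIKC\* and for LlMADS62, and the highest, LlMADS12 of FLC, lies at 10851 counts.

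Under salt stress, 0 of the 8 tested type II genes passed both thresholds of the study, an absolute log2 fold change above 1 and an adjusted p under 0.05, against 19.3% of all tested gene models (edgeR, quasi-likelihood test, Benjamini-Hochberg adjusted over all tested gene models). DESeq2 also gave 0 genes. Unadjusted edgeR p-values were under 0.05 for 7 of the 8 genes. The same 7 had an adjusted p under 0.05, against 72.4% of all tested gene models. With this rule, 5 type II genes were higher in salt stress (36.7% of all tested gene models were) and 2 were lower (35.6%). Small changes with a low p were therefore common among all gene models, and the share among the type II genes is not called particular to them. The median log2 fold change was 0.37 over the 8 genes and -0.0032 over all tested gene models. In size of change the 8 genes lay between the 1.36 and 72.9 percentiles of all tested gene models, and in mean CPM between the 19.6 and 88.3 percentiles.

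**Figure D2:**
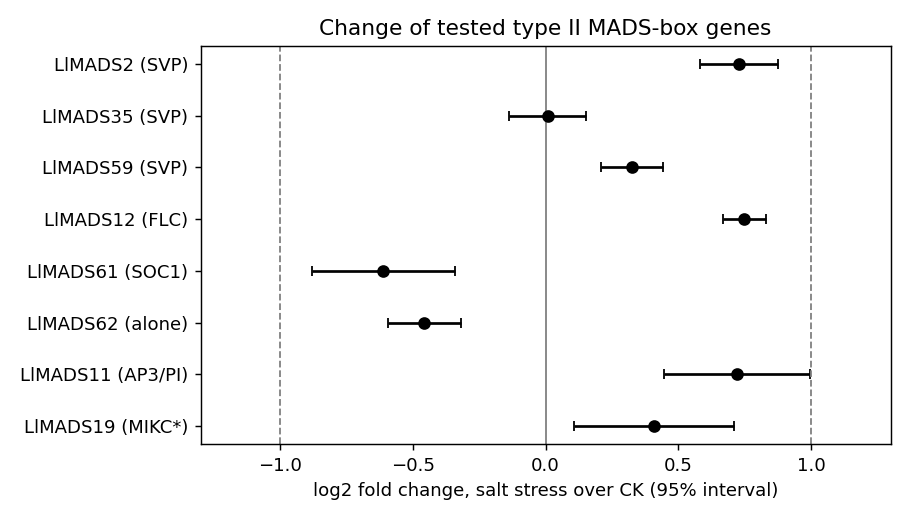
Log2 fold change of salt stress over CK (horizontal axis, points with 95% intervals from edgeR) for the 8 tested type II genes (vertical axis, subfamily in brackets), with dashed lines at -1 and 1. Each interval lies between the dashed lines, the widest reach being 0.997 for LlMADS11, and LlMADS61 and LlMADS62 lie left of 0.

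The SVP subfamily is named after *Short Vegetative Phase*, a repressor of flowering in *Arabidopsis*, and also holds AGL24, which promotes flowering there. All 4 SVP genes had counts in every library, and 3 were tested. Of these, 2 rose and 1 did not pass the test. *LlMADS2* (model 514 on scaffold 64453, chromosome 1) had 31.7, 31.5 and 33.8 CPM in salt stress, against 18.9, 21.0 and 18.7 CPM in CK. All 3 salt stress libraries lay above all 3 CK libraries, which 74% of all tested gene models also show in one direction or the other. The log2 fold change was 0.73 (standard error 0.072, edgeR adjusted p = 8.11e-12).

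*LlMADS59* (model 1246 on scaffold 3, chromosome 12) had 52.6, 48.6 and 50.7 CPM in salt stress, against 39.0, 42.7 and 39.8 CPM in CK. The groups did not overlap here either, but the change was smaller, a log2 fold change of 0.33 (95% interval 0.21 to 0.44, edgeR adjusted p = 3.28e-06). *LlMADS35* (model 131 on scaffold 81, chromosome 9) had 27.8, 26.1 and 23.9 CPM in salt stress, against 24.8, 26.1 and 26.6 CPM in CK. Its groups overlapped, and salt stress held both its highest and its lowest library. Its log2 fold change was 0.01, with a 95% interval of -0.14 to 0.15 (edgeR adjusted p = 0.924), so a change as large as that of *LlMADS2* lies outside the interval. With total counts in place of TMM the estimate was -0.17 (edgeR adjusted p = 0.0326), when the median of all gene models moved to -0.18.

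The fourth SVP gene, *LlMADS51* (model 343 on scaffold 40, chromosome 11), did not pass the filter, having 8, 22 and 8 counts in salt stress and 8, 8 and 9 counts in CK. A single salt stress library, replicate 2, held most of the excess. The ratio of the summed counts was 1.77 (exact 95% binomial interval 1.04 to 3.05, counting error only), and without salt stress replicate 2 it was 1.08 (0.539 to 2.11). In edgeR without the filter its adjusted p was 0.117.

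Ratios between genes of the same library do not depend on how libraries are scaled, so they compare the responses of the tested SVP genes directly. The log2 ratio of *LlMADS2* over *LlMADS35* was 0.19, 0.27 and 0.50 in salt stress, against -0.39, -0.32 and -0.51 in CK. *LlMADS2* thus had more reads than *LlMADS35* in every salt stress library and fewer in every CK library. The difference was 0.72, and its exact two-sided permutation p was 0.1, the smallest that 6 libraries allow, also after adjustment over the 3 pairs. *LlMADS2* over *LlMADS59* differed by 0.40, with means of -0.65 ± 0.076 in salt stress and -1.05 ± 0.035 in CK (SD, n = 3 each), and *LlMADS35* over *LlMADS59* by -0.32, both again without overlap. With p at its lowest possible value in each pair, these differences could not reach an adjusted p under 0.05. The 3 pairs are built from the same 3 genes, so each difference follows from the others and the pairs are not independent. Separated groups were common in these data, since 74% of all tested gene models had groups without overlap in CPM. The share of other gene pairs with separated ratios was not computed, so the separation is not called particular to the SVP genes.

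**Figure D3:**
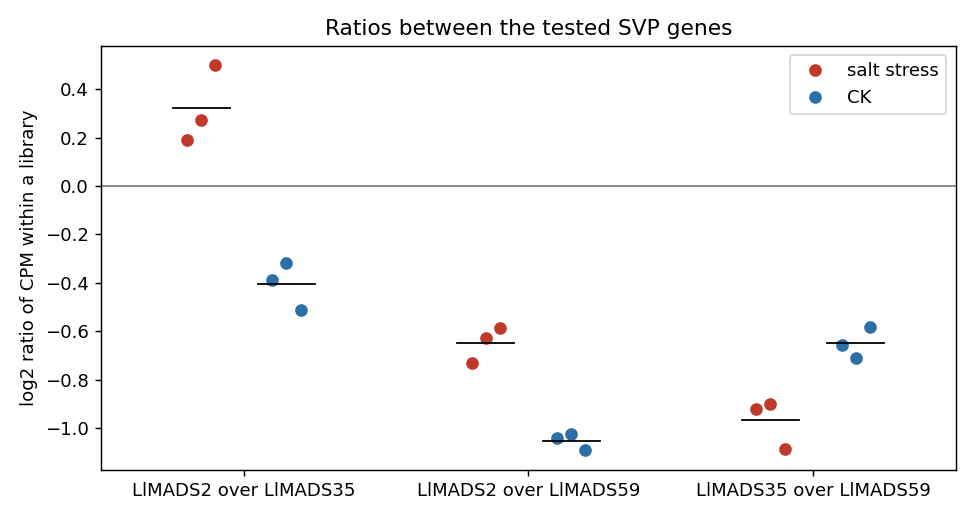
Log2 ratio of CPM between the tested SVP genes within each library (vertical axis) for the 3 pairs (horizontal axis), with salt stress points left of CK points and horizontal lines at the means. In each pair the 3 salt stress libraries lie apart from the 3 CK libraries, a separation that was not compared with other gene pairs. The ratio of LlMADS2 over LlMADS35 is above 0 in salt stress and below 0 in CK.

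The FLC subfamily is named after *Flowering Locus C*, a repressor of flowering in *Arabidopsis* that is silenced by prolonged cold. Of its 2 genes here, 1 held nearly every read. *LlMADS12* (model 597 on scaffold 7, chromosome 3) had 127, 129 and 131 CPM in salt stress, against 76.0, 77.3 and 77.3 CPM in CK. The libraries of a group lay close together, with a coefficient of variation of 1.67% in salt stress and 0.979% in CK. Its log2 fold change was 0.75 (95% interval 0.67 to 0.83), a 1.68-fold increase with an edgeR adjusted p of 4.72e-20. *LlMADS6* (chromosome 2) had 1 count in salt stress and 2 counts in CK, in all 3 libraries together.

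The SOC1 subfamily is named after *Suppressor of Overexpression of Constans 1*, which promotes flowering in *Arabidopsis* and is repressed there by FLC and SVP. Here the tested gene fell, and a link to the FLC and SVP genes was not tested. *LlMADS61* (model 185 on scaffold 42, chromosome 12) had 5.91, 5.55 and 4.59 CPM in salt stress, against 8.36, 8.61 and 7.68 CPM in CK. Every salt stress library lay below every CK library. The log2 fold change was -0.61 (95% interval -0.88 to -0.34, edgeR adjusted p = 8.66e-05). *LlMADS27* (chromosome 8) had 4 counts in salt stress and 4 in CK, a ratio of 1.16 after scaling with an exact 95% interval of 0.217 to 6.24.

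*LlMADS62* (model 19 on scaffold 64485, chromosome 12) has no *Arabidopsis* partner in the study's tree, so no role is given for it. It carries the K domain. It had 25.2, 24.3 and 23.3 CPM in salt stress, against 32.8, 34.9 and 32.4 CPM in CK, and the groups did not overlap. Its log2 fold change was -0.46 (95% interval -0.59 to -0.32, edgeR adjusted p = 1.53e-07). It is the other type II gene that fell.

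**Figure D4:**
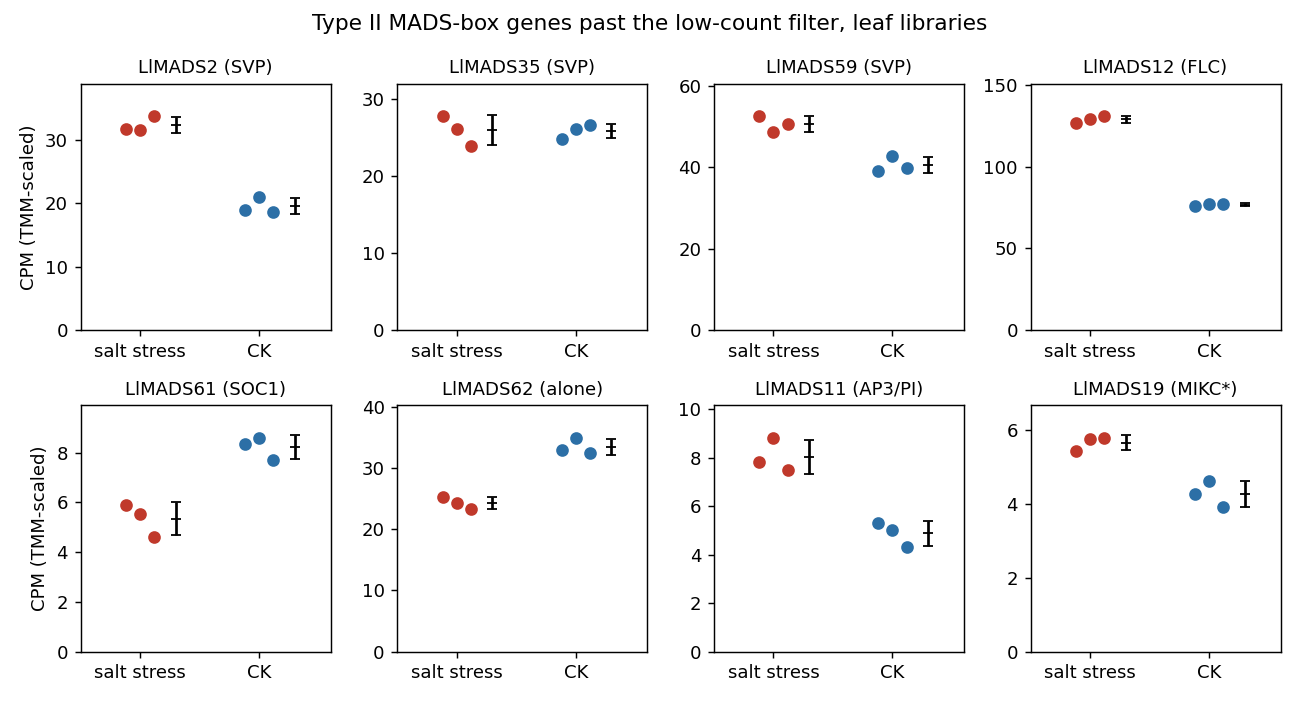
CPM scaled by TMM (vertical axis, from 0) of the 8 tested type II genes in salt stress and CK (horizontal axis), 1 point per library, with the mean and SD of 3 libraries beside the points. Only LlMADS35 shows overlapping groups, LlMADS61 and LlMADS62 are lower in salt stress, and the other 5 genes are higher.

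Genes of floral organ identity had few reads in leaf, with 1 exception. Class B genes, here the 3 genes of the AP3/PI subfamily, specify petals and stamens. *LlMADS11* (model 87 on scaffold 7, chromosome 3) had 7.82, 8.84 and 7.49 CPM in salt stress, against 5.32, 5.03 and 4.30 CPM in CK. Its groups did not overlap, and its log2 fold change was 0.72 (95% interval 0.45 to 0.997, edgeR adjusted p = 1.07e-05). The other AP3/PI genes were below the filter. *LlMADS37* had 3, 3 and 5 counts in salt stress and 2, 8 and 5 in CK, and *LlMADS63* had 3, 8 and 4 counts in salt stress and 5, 0 and 2 in CK. Their ratios of 0.852 (exact 95% interval 0.354 to 1.99) and 2.49 (0.956 to 7.22) are too imprecise to set beside that of *LlMADS11*.

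Class C and D genes of the AG/STK subfamily specify stamens, carpels and ovules. *LlMADS48* had 10, 8 and 5 counts in salt stress and 8, 12 and 8 in CK, a ratio of 0.955 (exact 95% interval 0.525 to 1.72), and *LlMADS30* had 7 counts in all. SEP proteins, class E, join the proteins of the other classes into complexes. Of the 5 SEP genes, *LlMADS18* and *LlMADS22* had 0 counts in every library and *LlMADS39* had the most, with 7, 5 and 8 counts in salt stress and 5, 6 and 11 in CK. The ratio of *LlMADS39* was 1.06 (exact 95% interval 0.547 to 2.03). *LlMADS21* and *LlMADS26* had 11 and 5 counts in all. The summed SEP level was 0.546 ± 0.047 CPM in salt stress and 0.540 ± 0.12 CPM in CK (SD, n = 3 each).

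Class A genes of the SQUA subfamily act in floral meristems, sepals and petals in *Arabidopsis*. *LlMADS10* and *LlMADS40* had 7 and 6 counts over the 6 libraries, and 5 of the 6 counts of *LlMADS40* were in salt stress. *LlMADS28*, the AGL6 gene, had 1 count. *LlMADS29*, of the BS (B sister) subfamily known for the seed coat and ovule, had 2 counts. The counts of *LlMADS28* and *LlMADS29* were all in salt stress libraries, and both genes lie under the limit of 3 counts per library.

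Among subfamilies known outside the flower, AGL15 genes are best known from embryos. *LlMADS25* had 4, 10 and 6 counts in salt stress and 11, 8 and 3 in CK, a ratio of 1.06 (exact 95% interval 0.547 to 2.03), while *LlMADS14* had 0 counts in every library. The ANR1/AGL17 subfamily is known from roots, where ANR1 of *Arabidopsis* takes part in the response to nitrate. *LlMADS33* had 0 counts and *LlMADS58* had 2. *LlMADS50* of the AGL12 subfamily, also known from roots, had 3, 0 and 6 counts in salt stress and 1, 1 and 0 in CK. Its ratio was 5.23 (exact 95% interval 1.08 to 49.8), and without salt stress replicate 3 it was 2.56 (0.294 to 30.7). In edgeR without the filter its adjusted p was 0.0936.

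MIKC\* genes are known from pollen in *Arabidopsis*. *LlMADS19* (model 82 on scaffold 57, chromosome 4) was the only tested gene of the 4, with 5.41, 5.74 and 5.79 CPM in salt stress, against 4.26, 4.62 and 3.91 CPM in CK. The groups did not overlap, and the log2 fold change was 0.41 (95% interval 0.11 to 0.71, edgeR adjusted p = 0.0138). This call was lost in DESeq2 (adjusted p = 0.0747), in edgeR with total counts alone (0.158) and in edgeR without CK replicate 3 (0.0691). *LlMADS3* had 11, 11 and 5 counts in salt stress and 4, 9 and 6 in CK, a ratio of 1.65 (exact 95% interval 0.885 to 3.14). *LlMADS60* had 1, 2 and 1 counts in salt stress and 0 in each CK library, and *LlMADS34* had 0 counts throughout.

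Of the 19 type II genes that were detected but not tested, 7 had at least 20 counts, 8 had 4 to 19 and 4 had 1 to 3. The exact interval of the ratio left out 1 for 2 of them, *LlMADS50* and *LlMADS51*. These intervals allow for counting error only and were not adjusted over the 19 genes, so the 2 are not read as changed. Shares over all untested gene models were not computed for these intervals or for the p-values below. Counts in salt stress libraries only were found for 3 genes, *LlMADS28*, *LlMADS29* and *LlMADS60*, and counts in CK libraries only for 0. Among all detected gene models, 3.7% had counts in salt stress libraries only and 2.42% in CK libraries only. The 3 genes had 1, 2 and 4 counts in all, while most detected gene models passed the low-count filter. These shares are not matched for depth, so no excess is read from them. Fitted in edgeR without the filter, 0 of the 19 had an unadjusted p under 0.05, the lowest being 0.0608, and in DESeq2 the lowest adjusted p was 0.223. Depth limits what can be said of these genes, since even *LlMADS48* with 51 counts had an interval of 0.525 to 1.72.

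To compare levels between genes, CPM was divided by the coding length in kb, taken from the listed protein lengths. The lengths over which reads were counted, with any untranslated parts, were not used, so the order of genes is approximate. Salt stress and CK gave different orders. In salt stress *LlMADS12* came first with 159 ± 2.65 CPM per kb, followed by *LlMADS59* with 67.3 ± 2.64, *LlMADS35* with 51.4 ± 3.86, *LlMADS2* with 50.1 ± 1.98 and *LlMADS62* with 49.0 ± 1.96 CPM per kb (SD, n = 3 each). In CK *LlMADS12* also came first with 94.5 ± 0.925 CPM per kb, but *LlMADS62* was next with 67.4 ± 2.77, followed by *LlMADS59* with 53.8 ± 2.58, *LlMADS35* with 51.2 ± 1.85 and *LlMADS2* with 30.3 ± 1.95 CPM per kb (SD, n = 3 each). *LlMADS35*, *LlMADS2* and *LlMADS62* overlapped with their neighbours in salt stress, and *LlMADS59* and *LlMADS35* overlapped in CK. The 3 lowest genes were *LlMADS11*, *LlMADS61* and *LlMADS19* in salt stress, with 11.8 ± 1.03, 7.02 ± 0.892 and 5.17 ± 0.186 CPM per kb, and *LlMADS61*, *LlMADS11* and *LlMADS19* in CK, with 10.8 ± 0.628, 7.17 ± 0.770 and 3.90 ± 0.324 CPM per kb. *LlMADS11* and *LlMADS61* exchanged places without overlap in either group.

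The mix of type II reads can also be given as shares within each library, which need no scaling between libraries. *LlMADS12* and *LlMADS6* (FLC) took 44.3%, 45.3% and 46.2% of the type II counts in salt stress, against 35.8%, 34.6% and 36.3% in CK. *LlMADS62* took 8.79%, 8.53% and 8.19% in salt stress, against 15.5%, 15.6% and 15.2% in CK. SOC1 took between 1.66% and 2.06% in salt stress and between 3.65% and 3.96% in CK. The share of FLC was thus higher and those of *LlMADS62* and SOC1 lower in every salt stress library than in every CK library. SVP took between 37.8% and 39.2% in salt stress and between 39.2% and 40.3% in CK, and its groups overlapped slightly. A share can fall because another gene's counts rise, so these values describe the mix and not each gene's own change.

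**Figure D5:**
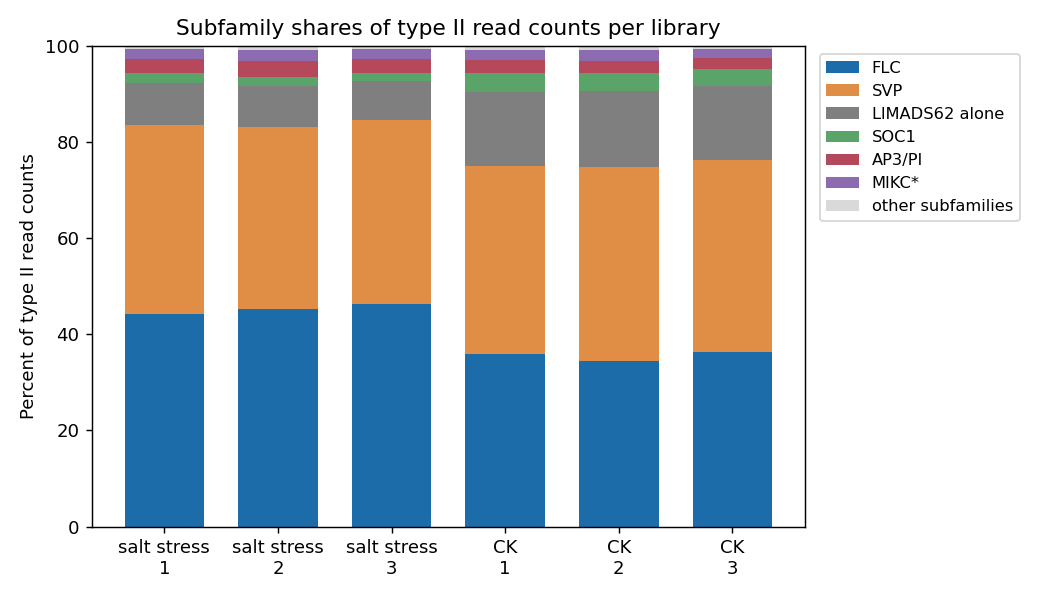
Percent of the type II read counts of each library (vertical axis) taken by each subfamily (colours), with the 3 salt stress libraries left of the 3 CK libraries (horizontal axis). FLC takes between 44.3% and 46.2% in salt stress and between 34.6% and 36.3% in CK, and the band of LlMADS62 is narrower in every salt stress library.

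Summed over the 32 genes, type II reads came to 287, 285 and 284 CPM in salt stress, against 212, 224 and 213 CPM in CK. All 3 salt stress libraries lay above the CK libraries. Without the TMM factors the sums were 269, 269 and 265 CPM in salt stress, against 225, 238 and 227 CPM in CK, so the direction was the same with total counts. The sum is carried by *LlMADS12* and the SVP genes. The summed SVP level was 110 ± 2.54 CPM in salt stress and 86.3 ± 3.62 CPM in CK (SD, n = 3 each), and that of the floral organ identity genes was 9.85 ± 1.08 CPM in salt stress and 6.47 ± 0.586 CPM in CK. *LlMADS11* carried most of the floral organ identity sum, and the other 13 floral organ identity genes summed to 1.80 ± 0.375 CPM in salt stress and 1.59 ± 0.229 CPM in CK. No test was made on these sums.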

How the data were processed

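Leaf RNA of 3 salt stress and 3 CK libraries was sequenced on an Illumina platform. The authors checked reads with FastQC, aligned them to the *L. littorea* genome with HISAT2 and counted them per gene model with featureCounts. The deposited values are raw counts. How strand, read pairs and reads with several matches were handled is not stated in those sources, so counts of near-identical genes are uncertain. Every column was assigned to a library and 0 rows lacked a name.

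Gene types, chromosomes, domains and protein lengths come from the study's supplement. Subfamilies come from its phylogenetic tree, most of them read from the drawn tree where the label of *LlMADS48* was hard to read. They match the listed gene types and the stated sizes of SEP, SVP and MIKC\*, but give 27 MIKCC genes beside *LlMADS62*, unlike the total in the text. Members and lists were chosen with earlier results of these data known. Every tested member, and untested ones with at least 20 counts, were named with their values.

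From the deposited counts, R 4.3.3 with edgeR 4.0.16 was run over all gene models: filterByExpr (minimum count 10), TMM, a robust quasi-likelihood fit on condition and Benjamini-Hochberg adjustment over the 18073 gene models tested. Floors are 3 counts per library. Exact intervals are Clopper-Pearson intervals of 95%. DESeq2 1.42.0, other scalings, no filter, a replicate block and each library left out were alternatives. The libraries of a group differed by more than counting noise (chi-square per degree of freedom 1.67 to 4.01). The highest values were those of salt stress replicate 3, with 4.01 against replicate 1 and 3.29 against replicate 2. The other pairs lay between 1.67 and 2.25. The common biological coefficient of variation in edgeR was 3.60%. P-values set the difference between groups against the spread between these libraries, as modelled over all tested gene models. How far that spread stands for other seedlings was not tested. On counts simulated from salt stress against CK, over 17917 genes, edgeR called 96.0% of genes changed by 1 on the log2 scale. It called 99.0% of those changed by 2, and 4.48% of its calls were unchanged genes. DESeq2, over 18073 genes, called 88% and 95%, and 1.08% of its calls were unchanged genes. The adjusted p alone was used for these calls. The simulation changed only 200 genes, whereas 72.4% of tested gene models were called in the data. It took each gene's dispersion from the trend and set no composition difference between groups. These rates therefore may not carry over to the data.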

Additional observations from a re-analysis of the deposited data

How the results depend on the processing

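The number of type II genes past both thresholds was 0 in every alternative: DESeq2, median-of-ratios scaling, total counts, no filter, the replicate block and each library left out. The number with an adjusted p under 0.05 was 7 in edgeR, 6 in DESeq2, and 6 to 7 when a library was omitted, the lowest without CK replicate 3. With total counts it was 7, of which 6 were shared with the TMM fit, since *LlMADS35* was called (-0.17) and *LlMADS19* was not (0.23). The median log2 fold change of the 8 genes was 0.19 with total counts, against 0.37 with TMM, while that of all gene models moved to -0.18. Omitting each library in turn gave 0.33 to 0.41. *LlMADS35*, near 0 with TMM, changed sign with total counts (-0.17), with no filter (-0.0045), without salt stress replicate 1 (-0.049) and without CK replicate 1 (-0.025). Omitting each library in turn gave -0.049 to 0.062. Of the 88 refitted log2 fold changes of single genes, 81 kept their direction and side of the threshold, 3 lost the call (all of *LlMADS19*) and these 4 changed sign. Total counts lowered every gene by about the same amount, so that sign change comes with the scaling. With no filter the median of all gene models also moved, from -0.0032 to -0.0159, while *LlMADS35* moved from 0.0083 to -0.0045. The cause of the sign changes other than that with total counts was not tested. Requiring a CPM of 1 in 3 or more libraries left 8 of the 27 detected genes. The replicate numbers were not taken as pairs, since same-numbered libraries deviated together with correlations over genes of only 0.063, -0.025 and 0.017. With the replicate block the number with an adjusted p under 0.05 was 7 and the median log2 fold change 0.37, and the block changed no call. Leaving out libraries for *LlMADS50* and *LlMADS51* was chosen after seeing the data, and gave ratios between 2.56 and 7.60 and between 1.08 and 2.21. The exact interval then held 1 for *LlMADS50* without salt stress replicate 1 or 3 or CK replicate 1 or 3, and for *LlMADS51* without salt stress replicate 2 or CK replicate 1 or 3. Depth limits the 24 untested genes.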

Other observations

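Some type II genes lie on the same scaffold as others, judged by the numbers in the names of the gene models, and their counts differed. The counts are not scaled for length and several are very low. Other gene models on a shared scaffold were not compared, so the differences are not called particular to these genes. *LlMADS62* (model 19) and *LlMADS63* (model 170) on scaffold 64485 had 3131 and 22 counts over the 6 libraries. *LlMADS11* (model 87) and *LlMADS12* (model 597) on scaffold 7 had 680 and 10851 counts. *LlMADS39* (model 30) and *LlMADS40* (model 33) on scaffold 9 had 42 and 6 counts, and the adjacent *LlMADS28* (model 1) and *LlMADS27* (model 2) on scaffold 64419, on opposite strands, had 1 and 8 counts. *LlMADS58* (model 1210) and *LlMADS59* (model 1246) on scaffold 3 had 2 and 4854 counts.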
